A study of Mus musculus with 11 samples.

Results

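The plasminogen activation genes measured here were Plau, Plat, Plaur, Serpine2 and Plgrkt, picked by symbol in the deposited expression tables. All 5 were found among the 19629 rows of the deposited normalized table, and all 5 had enough counts to be tested. Of these genes 2 encode activators, 2 encode receptors and 1 encodes an inhibitor, so the group holds more than activators and inhibitors. RNA was sequenced in bulk from the aortic arch of mice at postnatal day 11. The Het group was 6 Tgfbr2-G357W/+ mice, which carry 1 allele with the G357W substitution and model Loeys-Dietz syndrome Type II, in which the aorta widens and can tear. The WT group was 5 Tgfbr2-+/+ littermates. The product of Tgfbr2 is a receptor that binds TGF-beta. The labels list no treatment and name neither strain, sex nor litter.

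Plasminogen is an inactive protease made mainly by the liver. It becomes plasmin, which degrades fibrin and several matrix proteins, when it is cut by the urokinase-type activator (Plau) or the tissue-type activator (Plat). The urokinase receptor (Plaur) and plasminogen receptors such as Plgrkt hold these proteins on the cell surface, and serpins such as Serpine2 trap the activators in inactive complexes. In arteries, endothelium is known as a source of Plat, smooth muscle cells of Serpine2, and macrophages and activated mesenchymal cells of Plau and Plaur.

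Library totals ran from 13113467 to 19327935 counts. Acta2, Myh11, Tagln and the other smooth muscle markers summed to 33600 to 38100 CPM (counts scaled to a common library total) in WT and 30400 to 41400 CPM in Het, and endothelial markers to 396 to 530 and 347 to 564 CPM. The labels name only smooth muscle and endothelial cells, yet fibroblast markers summed to 5770 to 12800 CPM and brown fat markers to 283 to 2610 CPM over the 11 libraries. Of the cell type markers with enough counts to be tested, Cnn1 (smooth muscle), Pi16 (fibroblast), Sox9 (cartilage) and Tnni2 (skeletal muscle) fell in Het and none rose. Over all tested genes 5.03 percent were called, 2.65 percent higher and 2.38 percent lower in Het. Several lists were tested only in part, such as 2 of 5 cartilage, 2 of 5 skeletal muscle and 2 of 7 neutrophil markers. Libraries WT 1 and WT 2 stood apart on the first principal component (24.1 percent of the variance), at -49.7 and -47.1. WT 3 to 5 lay at -16.4 to -2.1 and the Het libraries at 14.7 to 29.1, so this component also separated the groups. Xist, the transcript of the inactive X chromosome, had at least 100 counts in every WT library, in Het 1 and in Het 2. It had at most 10 in Het 3 to 6, the only libraries with counts of the Y-linked gene Ddx3y. The 4 Y-positive Het libraries thus had no WT counterpart, and values from the Xist-positive libraries are given beside those of the 5 genes. The deposited column names carry a number, 6 or 7, that no label explains; number 6 is on WT 3 and on Het 1, 2, 4 and 5.

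Upstream sequence is shown for the receptor Plaur and the inhibitor Serpine2, the pair of genes with the smallest p after Plau and with log2 fold changes of opposite sign. RefSeq promoter entries (GRCm38.p6) matched 3 of the 5 genes, Plaur, Serpine2 and Plgrkt, and had none for Plau and Plat. Capitals mark matches to the GC box GGGCGG, bound by Sp1-type factors, or to the AP-1 motif TGANTCA, where N is any base, each searched on both strands with overlaps kept. The Plaur stretch is chr7:24462233-24462482, on the plus strand, and ends at the RefSeq start site. The Serpine2 stretch is chr1:79858697-79858915, on the minus strand, and ends 31 bases before the RefSeq start, where an annotated exon begins.
Plaur: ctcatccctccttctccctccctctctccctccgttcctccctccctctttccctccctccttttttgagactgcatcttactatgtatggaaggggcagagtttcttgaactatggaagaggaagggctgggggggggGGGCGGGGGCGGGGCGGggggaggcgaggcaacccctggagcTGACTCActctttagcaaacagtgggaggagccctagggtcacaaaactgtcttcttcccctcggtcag
Serpine2: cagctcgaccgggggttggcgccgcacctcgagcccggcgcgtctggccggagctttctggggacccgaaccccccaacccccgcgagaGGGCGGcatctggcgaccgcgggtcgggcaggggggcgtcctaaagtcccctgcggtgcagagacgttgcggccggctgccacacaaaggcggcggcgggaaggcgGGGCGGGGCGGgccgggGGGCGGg

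In the 250 bases before each RefSeq start, Plaur held 3 GC boxes and 1 AP-1 match, whose first base lay 69 bases before the start. Serpine2 held 6 GC boxes and no AP-1 match, and Plgrkt 2 GC boxes, 2 CCAAT boxes (CCAAT) and no AP-1 match. All 250 bases of the Plgrkt window lie in an annotated exon of another Plgrkt transcript. The Serpine2 window lies inside the annotated span of its gene, so both are upstream of the RefSeq start only. Of 32851 such windows, 32.7 percent held a GC box, 33.8 percent a CCAAT box and 6.75 percent an AP-1 match. None of the 3 windows held the Smad palindrome GTCTAGAC or the TATA box TATAAA, which 0.167 and 12.4 percent of windows held. The Serpine2 window was 78.8 percent G and C, against 59.6 percent for Plaur and a median of 52.4 percent over all windows. A match is a string of letters in a window and was not tied here to any factor or to the expression values.

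Het was compared with WT to see which of these genes differ in the young arch that carries the mutation. Of the 5 genes, only Plau passed the threshold, an adjusted p under 0.05 in edgeR's quasi-likelihood test across 14757 genes. In that test 5.03 percent of all tested genes passed, made up of 2.65 percent higher and 2.38 percent lower in Het; at a relaxed adjusted p of 0.1, 8.74 percent of genes passed, and again only Plau of the 5. Plau rose 2.30-fold, while Plat, Plaur, Serpine2 and Plgrkt did not pass. The median log2 fold change of the 5 genes was 0.211, beside -0.0046 over all tested genes.

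Plau, the urokinase-type activator, lies on chromosome 14 (20836660 to 20843385, plus strand, GRCm38, ENSMUSG00000021822). Its level was 4.767, 4.622, 5.956, 4.703 and 6.354 CPM in WT 1 to 5. In Het 1 to 6 it was 13.89, 11.75, 13.89, 10.85, 11.49 and 11.19 CPM. Every Het library lay above every WT library, with a gap from 6.354 to 10.85 CPM; groups that do not overlap, with Het above, were seen for 2.41 percent of tested genes. Group means were 5.28 ± 0.812 CPM (SD, n = 5) and 12.2 ± 1.36 CPM (SD, n = 6). The log2 fold change was 1.20 ± 0.15 (SE; 95% interval 0.88 to 1.53), with an adjusted p of 2.59e-04 by edgeR, and Plau ranked number 44 of the 14757 genes by p. These values rest on 64 to 116 counts in WT and 141 to 212 in Het, so counting error alone is 11.3 percent of the level per WT library, close to the observed coefficient of variation of 15.4 percent.

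The higher Plau level was seen in Xist-positive and in Y-positive Het libraries, and under both column-name numbers. The Xist-positive Het 1 and Het 2 lay at 13.89 and 11.75 CPM and the Y-positive Het 3 to 6 at 10.85 to 13.89 CPM, so the ranges overlapped. Fitted to the 7 Xist-positive libraries only, of which 2 are Het, Plau had a value of 1.28 and missed the threshold (adjusted p = 0.0588, edgeR); 34 of all genes passed in that smaller fit. With a sex score as a covariate it was 1.29 with an adjusted p of 0.0074. Among libraries numbered 6, WT 3 lay at 5.956 CPM and the 4 Het libraries at 10.85 to 13.89; among those numbered 7, the 4 WT libraries lay at 4.622 to 6.354 and Het 3 and Het 6 at 13.89 and 11.19 CPM. With that number as a covariate the log2 fold change was 1.19, adjusted p = 0.00177.

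Markers of macrophages, fibroblasts, endothelium and cartilage were set beside Plau. The 7 macrophage markers, Cd68, Adgre1, Csf1r, Cd163, Mrc1, Lyz2 and C1qa, summed to 52.7 to 149 CPM in WT (median 129) and 69.2 to 212 CPM in Het (median 170), and 0 of 7 passed. Most of this sum was Lyz2, which averaged 80.0 and 109.9 CPM. Cd68 had a log2 fold change of -0.02, and the other macrophage markers had positive ones, from 0.15 (Csf1r) to 0.73 (Adgre1). The 6 fibroblast markers had median sums of 5820 and 8300 CPM, most of it Col1a1, which averaged 5565 ± 2461 and 7247 ± 2049 CPM (SD) and did not pass. Of the fibroblast markers, Pi16 fell and none rose. Dcn and Dpt had log2 fold changes of -0.04 and -0.18, and Col1a1, Lum and Pdgfra of 0.38, 0.22 and 0.16. Apart from Pi16 none passed. Of the 8 endothelial markers none passed, and their median sums were 497 and 405 CPM. Pecam1, the most abundant of them, averaged 295.7 and 243.1 CPM. Pecam1, Cldn5 and Tie1 had negative log2 fold changes, of -0.28, -0.73 and -0.15. Cldn5, which averaged 45.5 and 27.4 CPM, came closest to the threshold (adjusted p = 0.087, edgeR). The other 5 of the 8 (Cdh5, Kdr, Tek, Emcn and Vwf) had positive log2 fold changes, from 0.22 to 1.30. No marker of these 3 lists was at 0 in all libraries, and the 5 cartilage markers summed to at most 9.47 CPM, with Matn1 at 0 counts throughout. The part of cell makeup in the Plau result was not tested, and in bulk tissue more cells of a type and more RNA per cell cannot be told apart.

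**Figure D1:**
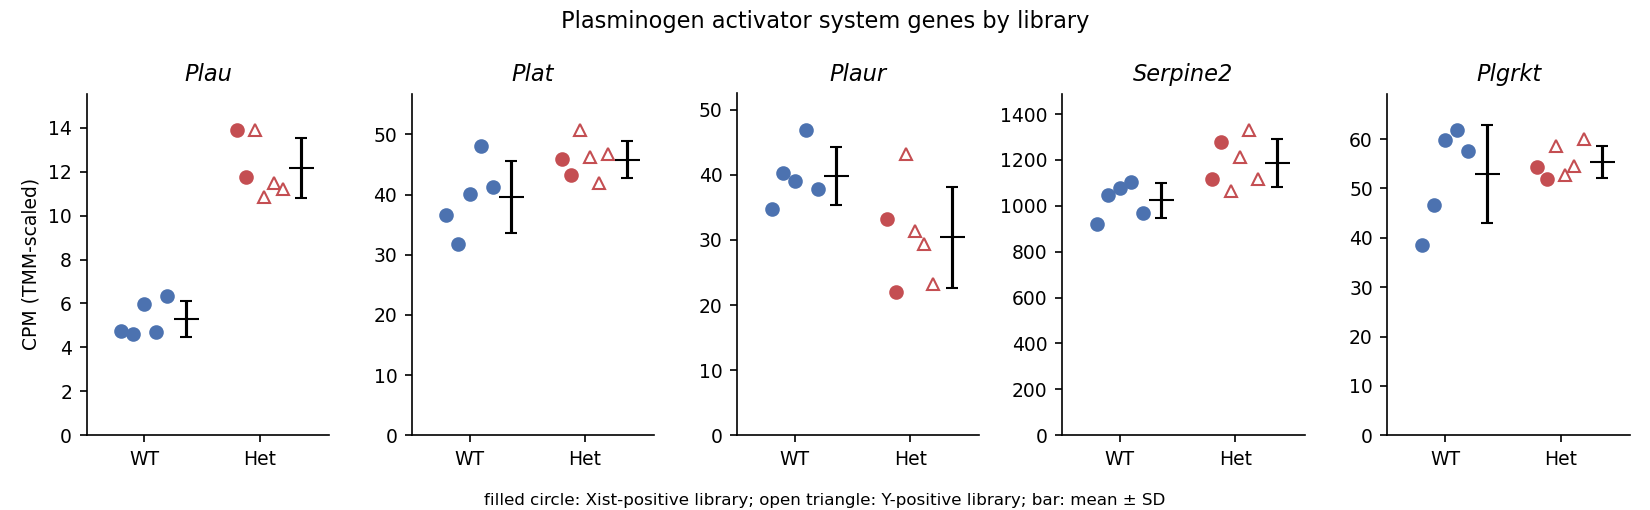
CPM of each gene (vertical axes, from 0, scaled per panel) in the 5 WT and 6 Het libraries; filled circles are Xist-positive libraries, open triangles Y-positive ones, and bars the mean ± SD. Plau is the only panel without overlap, at 4.622 to 6.354 CPM in WT and 10.85 to 13.89 CPM in Het.

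Plat, the tissue-type activator that endothelium releases, lies on chromosome 8 (22757727 to 22782844, plus strand). It was at 36.68, 31.75, 40.1, 48.13 and 41.19 CPM in WT 1 to 5 and ranged from 41.88 to 50.7 CPM in Het, with a median of 46.1. WT 4 lay inside the Het range and WT 1 and WT 2 were the lowest libraries of all. The means were 39.6 ± 6.04 CPM (SD, n = 5) and 45.8 ± 3.06 CPM (SD, n = 6), a log2 fold change of 0.21 ± 0.10 (95% interval -0.01 to 0.43; adjusted p = 0.283, edgeR). Without WT 1 and WT 2 the log2 fold change of Plat was 0.09, less than the main value by over 1.5 times. In the Xist-positive libraries the log2 fold change of Plat was 0.18 (adjusted p = 0.808). The interval of Plat lies wholly below that of Plau, though a test of that difference was not made.

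Plaur, the urokinase receptor, lies on chromosome 7 (24462484 to 24475968, plus strand) and is anchored to the outer membrane by a lipid. It was at 34.76, 40.33, 39.07, 46.88 and 37.9 CPM in WT 1 to 5. In Het 1 to 6 it was 33.18, 21.98, 43.21, 31.38, 29.31 and 23.26 CPM. In Het, 5 of 6 libraries lay below every WT library, and Het 3 lay above all WT libraries but WT 4. The means were 39.8 ± 4.47 CPM (SD, n = 5) and 30.4 ± 7.69 CPM (SD, n = 6), a coefficient of variation of 11.2 percent in WT and 25.3 percent in Het. The log2 fold change was -0.39 ± 0.15 (95% interval -0.71 to -0.07), which did not pass (adjusted p = 0.163, edgeR). Leaving out Het 3 gave -0.52 with an adjusted p of 0.0382, so that library decides the call. Plaur was -0.52 in the Xist-positive libraries and -0.50 with the sex score (adjusted p = 0.418 and 0.415).

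Serpine2, also called protease nexin 1, inhibits thrombin and both activators and binds heparan sulfate on cells and in matrix; the gene lies on chromosome 1 (79794197 to 79861180, minus strand). Its level was 922, 1048, 1076, 1104 and 966.9 CPM in WT 1 to 5, and 1066 to 1330 CPM in Het with a median of 1164. In Het, 5 of 6 libraries lay above every WT library, and Het 3, the lowest, lay between WT 2 and WT 3. Means were 1023 ± 76.4 CPM (SD, n = 5) and 1186 ± 103.5 CPM (SD, n = 6), a 1.16-fold difference. The log2 fold change of 0.21 ± 0.08 (95% interval 0.04 to 0.39) did not pass (adjusted p = 0.158, edgeR). With at least 12935 counts per library, counting error is 0.807 percent in WT, far under the coefficient of variation of 7.47 percent between libraries. With the column-name number as a covariate the value for Serpine2 was 0.14, adjusted p = 0.472, and in the Xist-positive libraries it was 0.23, adjusted p = 0.613.

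Plgrkt, a plasminogen receptor that spans the membrane and ends in a lysine, lies on chromosome 19 (29348599 to 29367390, minus strand). It was at 38.53, 46.69, 59.86, 61.8 and 57.56 CPM in WT 1 to 5 and at 51.81 to 60.08 CPM in Het, with a median of 54.47. All Het libraries lay within the WT range, whose low end was WT 1 and WT 2. Means were 52.9 ± 9.93 CPM (SD, n = 5) and 55.4 ± 3.29 CPM (SD, n = 6). The log2 fold change was 0.07 ± 0.11 (95% interval -0.18 to 0.31; adjusted p = 0.813, edgeR), and it was 0.011 in the Xist-positive libraries, -0.11 without WT 1 and WT 2 and -0.029 without WT 1, so that no direction can be given for Plgrkt.

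**Figure D2:**
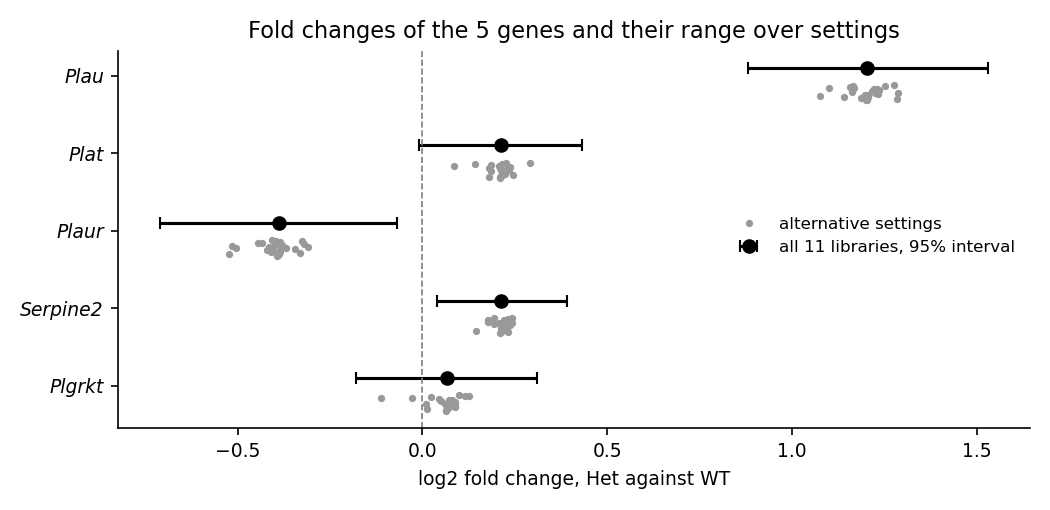
Log2 fold change of Het against WT (horizontal axis) for each gene from all 11 libraries, as black points with 95% intervals, and under 25 alternative settings as grey dots. Plau stays between 1.08 and 1.29 under all 25, whereas Plgrkt takes values on both sides of 0. The setting with a threshold of 0.1 repeats the main fit.

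Levels were set side by side per length, as CPM per kilobase of merged exons. In WT the order was Serpine2 (124 ± 9.21), Plaur (15.2 ± 1.71), Plgrkt (13.9 ± 2.62), Plat (6.34 ± 0.967) and Plau (2.23 ± 0.343; SD, n = 5 for each). Plaur and Plgrkt overlapped, at 13.3 to 17.9 and 10.1 to 16.3, and the other neighbours in this order did not. In Het, Serpine2 was at 143 ± 12.5, Plgrkt at 14.6 ± 0.865, Plaur at 11.6 ± 2.94, Plat at 7.34 ± 0.491 and Plau at 5.14 ± 0.575 CPM per kilobase (SD, n = 6 for each). Plgrkt and Plaur overlapped in Het too, at 13.6 to 15.8 and 8.4 to 16.5, so their order is not settled in either group. Plau was thus the lowest of the 5 in both groups, and its range in Het, 4.58 to 5.87, ended below that of Plat, 6.71 to 8.12. Merged exons of all transcripts give long lengths for genes with rare isoforms, and the lengths in use in this tissue were not measured.

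Ratios of counts within a library do not depend on the scaling between libraries, and are given as a description since Plau enters most of them. Plau had 9.77 to 15.4 counts per 100 counts of Plat in WT and 23.4 to 30.3 in Het. Against its receptor Plaur, the Plau count per 100 was 13.4 ± 2.74 among 5 WT libraries and 41.6 ± 8.08 among 6 Het libraries (mean ± SD), with highest values of 16.8 and 53.4 and a lowest Het value of 32.1. Against the inhibitor Serpine2 it had 0.519 ± 0.0935 and 1.04 ± 0.187 counts per 100. None of these 3 ratios overlapped between the groups. Plat against Serpine2, which leaves Plau out, was 3.87 ± 0.531 in WT and 3.90 ± 0.583 in Het, with ranges of 3.03 to 4.36 and 3.15 to 4.76 that overlapped.

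**Figure D3:**
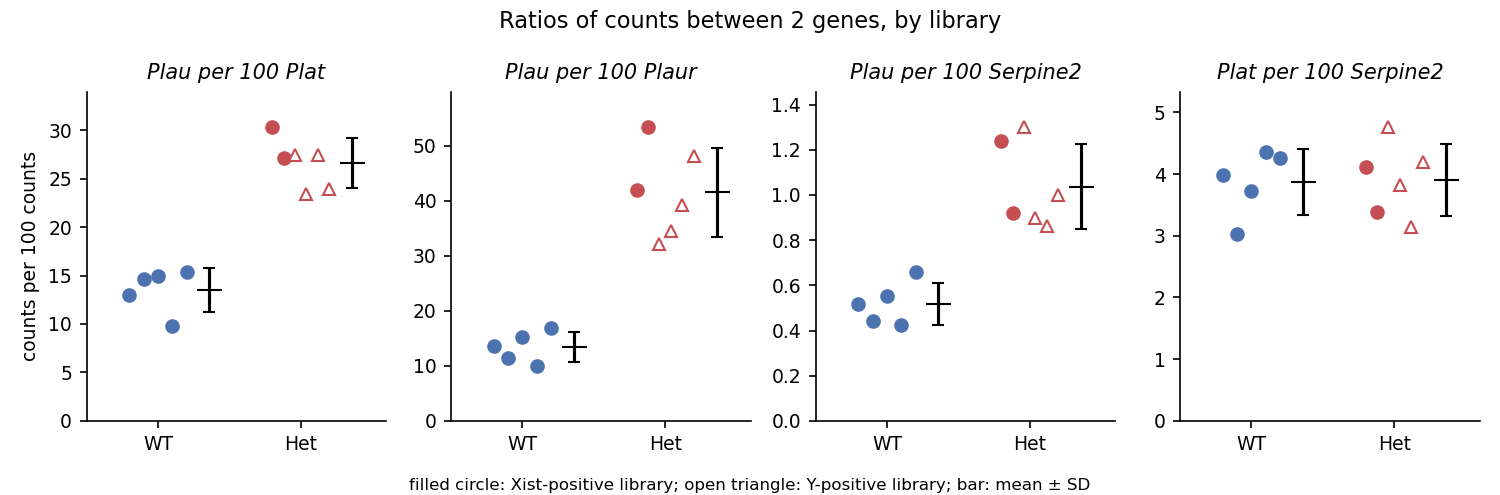
Counts of 1 gene per 100 counts of another in each library (vertical axes, from 0), by group, with mean ± SD; symbols are as in the plot of CPM. The 3 ratios with Plau on top are separate between groups, for example at most 16.8 in WT and at least 32.1 in Het against Plaur, and the ratio of Plat to Serpine2 is not.

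Within the groups, the 5 genes did not vary together as a block. After subtracting each group's mean, the highest correlation of log2 CPM over the 11 libraries was that of Plat with Plgrkt (r = 0.68), and both were low in WT 1 and WT 2. Plau had r of 0.31 with Plat, 0.31 with Plaur, 0.41 with Plgrkt and -0.37 with Serpine2. Among 9759 protein-coding genes that averaged 5 CPM or more, Tpm2 (r = 0.937) and Hibadh (0.905) were among the closest to Plau by this measure. Closest to Plat were Knop1, Pltp and Glt8d1 (0.933 to 0.911), and to Plaur Ltv1, Dmap1 and Ssr3 (0.907 to 0.844). Serpine2 was most like Top3a, Nrip2 and Rab5a (0.918 to 0.872), and Plgrkt most like Akr1a1, Nup43 and Rpl10a (0.96 to 0.955). None of the genes named here as alike passed in Het against WT. They are the extremes of many comparisons over 11 libraries that share depth and makeup, and describe likeness only.

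The rest of the plasminogen system was read from a list of 42 other genes, of which 27 had enough counts to be tested. Of the 27, 1 rose, none fell and 26 did not pass, beside 5.03 percent called over all genes, and their median log2 fold change was 0.12. The member that rose was Mmp3, stromelysin 1, a matrix metalloproteinase whose proenzyme plasmin can activate. Mmp3 was at 3.972, 2.613, 5.083, 5.364 and 5.531 CPM in WT 1 to 5, and at 9.532, 11.03, 11.32, 5.615, 8.072 and 8.159 CPM in Het 1 to 6. Every Het library was above every WT library, as for 2.41 percent of all tested genes, though Het 4 exceeded WT 5 by little. The log2 fold change was 0.99 ± 0.23 (adjusted p = 0.0191, edgeR), and the call was lost with the sex score (adjusted p = 0.0797), with the column-name number (0.0529), in the Xist-positive libraries (0.173), with a replicate block (0.11) and without WT 1 and WT 2 (0.099). The log2 fold change of Mmp3 was 1.00 to 1.21 in the first 4 of these fits and 0.75 without WT 1 and WT 2.

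Plasminogen itself was nearly absent as RNA. Plg had 0 counts in 10 libraries, which allows a level of up to 3 counts or 0.154 to 0.231 CPM, and 5 counts in Het 2. Among its cell surface binders, the annexin A2 gene Anxa2 averaged 2108 ± 252 CPM over the WT libraries and 1815 ± 59.95 CPM over the Het libraries (SD). Its partner S100a10 averaged 180.6 ± 33.8 and 173.7 ± 11.2 CPM. Of the 3 tested binders none passed. WT 1 and WT 2, at 1875 and 1794 CPM of Anxa2, lay inside the Het range of 1736 to 1878, while WT 3 to 5 lay at 2271 to 2320. Without these 2 libraries Anxa2 had a log2 fold change of -0.34 ± 0.07 and passed (adjusted p = 0.0131), against -0.22 and 0.156 with all libraries.

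Of the other inhibitors and cofactors reported here 2 had enough counts, and neither passed. Serpini1, the activator inhibitor neuroserpin, was at 40.9 ± 6.18 CPM over the WT libraries and 48.6 ± 3.24 CPM over the Het libraries (SD), a log2 fold change of 0.25 ± 0.10 (SE; adjusted p = 0.194). Tfpi2, a Kunitz-type inhibitor of plasmin, was at 1.07 ± 0.117 CPM over the WT libraries and 1.64 ± 0.513 CPM over the Het libraries (SD), a log2 fold change of 0.61 ± 0.31 (SE; adjusted p = 0.302). Serpinf2, which encodes the plasmin inhibitor alpha 2-antiplasmin, had 3 counts in WT 2 and 0 in the other libraries.

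Of 6 tested receptors and partners that clear activator and inhibitor complexes none passed, and their median log2 fold change was -0.009. Lrp1, the main endocytic receptor for such complexes, averaged 161 ± 6.19 CPM over the WT libraries and 160.3 ± 10.4 CPM over the Het libraries (SD), and differed by -0.01 ± 0.07 on the log2 scale (SE; adjusted p = 0.982). Of 8 tested substrates and activated growth factors, 1 rose, Mmp3, and 7 did not pass; the closest was Pdgfd, a growth factor that urokinase can activate (0.27, adjusted p = 0.0908), which passed with DESeq2 (0.0468) and without WT 4 (0.0361). None of 8 tested coagulation genes on cells passed.

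**Figure D4:**
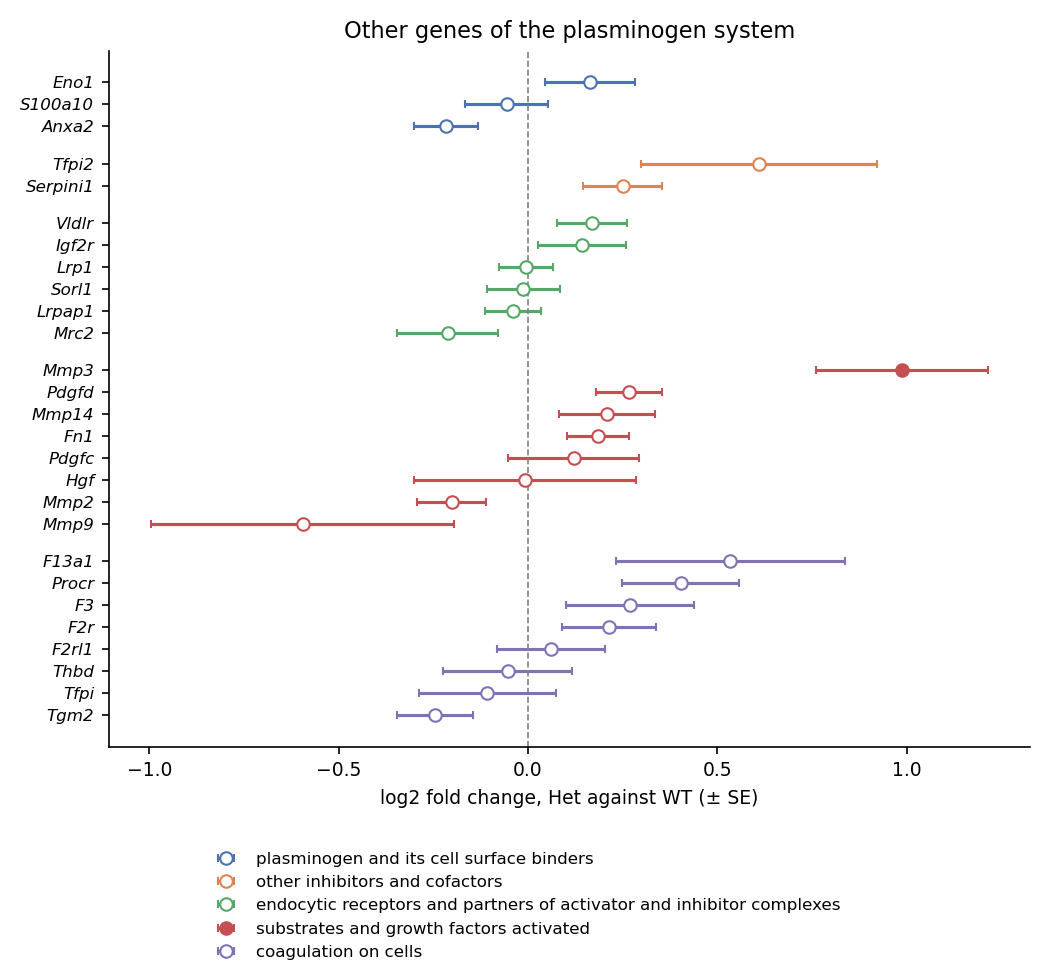
Log2 fold change of Het against WT with its SE (horizontal axis) for the 27 tested genes of the wider list, coloured by role; a filled point passed an adjusted p of 0.05. Mmp3 at 0.99 is the 1 filled point.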

How the data were processed

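Counts per gene for 11 libraries were deposited by the authors, with no normalization; a deposited signal table, named TMM-normalized CPM by the authors, served for 2 alternatives. GRCm38, STAR 2.5.2a, limma, edgeR and DESeq2 appear in the submitters' processing notes with no role; how reads were counted is not given in the sources used here. Per the labels' protocols the libraries are unstranded; no annotated gene overlaps the 5 genes. Positions and merged exon lengths are from GENCODE M21 (GRCm38).

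From 48709 mouse gene rows (24 other rows were left out), filterByExpr (minimum count 10, minimum total 15) kept 14757. They were scaled by TMM and tested by edgeR 4.0.16 in R 4.3.3 (robust quasi-likelihood, no covariates, all 11 libraries, Benjamini-Hochberg over all genes). The SE is the log2 fold change divided by the square root of F, and CPM uses the TMM factors (0.979 to 1.031). Tested on simulated data for this contrast (14757 genes), the fit called 47.8 percent of 67 genes altered by 1.5-fold. It called 59.7 percent of 67 altered by 2-fold and 93.9 percent of 66 altered by 4-fold, and 7 of 141 calls were false. Simulated counts were drawn independently for each gene, without a sex difference or library differences shared by many genes. These rates hold for that setting only. The labels do not say how animals relate beyond littermates, so p-values measure the spread between these libraries. The 95% intervals of log2 fold changes come from the edgeR fit and include the spread between libraries; the limit from a count of 0 covers counting error only.

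Replicate numbers were checked for pairing: same-numbered WT and Het libraries had correlations of their deviations of -0.352 to 0.112, with 1 of 5 over 0.1, so they were not paired. The 5 genes, the lists, the rule for named genes and the alternatives were chosen with earlier results of these data known. The rule named all 5 genes, listed genes past the threshold, Plg, Serpinf2, Lrp1, Anxa2 and S100a10, the defining cell markers, and the 3 most alike genes of each; 2 genes this gave are not reported here, and 1 of them was left out of the list; Pdgfd, Serpini1 and Tfpi2 were added once values were known. The alternatives comprised RLE and upper quartile scaling, DESeq2 1.42.0, limma 3.58.1 (voom, and trend with pseudocounts of 1 and 0.5), no or a stricter filter, a replicate block, sex score (Y-linked genes minus Xist) and column-name number as covariates, subsets of libraries and a threshold of 0.1.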

Additional observations from a re-analysis of the deposited data

Results flagged for a closer look

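Among 56 sets of values (a gene, a ratio or a marker sum in 1 group), 6 had a library far from the rest of its group, its gap to the nearest library being over 0.71 of the range among 5 libraries or 0.625 among 6; chance gives about 1 in 20. None of these concerned Plau, Plat, Plaur, Serpine2 or Plgrkt. The macrophage markers summed to 52.7 CPM in WT 2 against 128 to 149 in the other WT libraries. Plau was at 4.767, 4.622 and 4.703 CPM in WT 1, WT 2 and WT 4, from 72, 69 and 64 counts. With a counting error of 11.3 percent per WT library, the order of these libraries is not settled. A link between Plau and the macrophage sum was not tested. Without WT 2 the log2 fold change of Plau was 1.16 (adjusted p = 0.00109, edgeR). The fibroblast markers summed to 12800 CPM in Het 6 against 7260 to 9310 in the other Het libraries, and S100a10 was at 195.1 CPM there against 162.6 to 173.3. Brown fat markers summed to 2610 CPM in WT 5 against 728 to 912 in the other WT libraries. Plg was at 0.36 CPM in Het 2 and Serpinf2 at 0.201 CPM in WT 2, each at 0 in the other libraries of its group. With 1 library above 0 the gap is the whole range, so such a set is always flagged and the rate of 1 in 20 does not apply. Plg in WT and Serpinf2 in Het were at 0 throughout and could not be flagged.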

How the results depend on the processing

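The positive direction of Plau, Plat and Serpine2 and the negative direction of Plaur held under all 25 alternatives, and the Plau call under 24; it was lost in the Xist-positive libraries, at 1.28 (adjusted p = 0.0588), where 0 of the 5 genes passed and fewer samples were used. The threshold of 0.1 counts among the 25 but reuses the main fit, so its directions and the Plau call could not differ. Leaving out each library gave Plau 1.16 to 1.27, Plat 0.14 to 0.29, Plaur -0.52 to -0.31, Serpine2 0.18 to 0.24 and Plgrkt -0.029 to 0.127, with 1 to 2 of the 5 genes past the threshold. Plgrkt was reversed without WT 1 and WT 2 (-0.11) and without WT 1 (-0.029). Over all genes 742 passed; 1297 did with DESeq2, 1290 at the threshold of 0.1, 124 with the sex score, 34 in the Xist-positive libraries, 415 when the column-name number was a covariate, 432 without WT 1 and WT 2, and 458 (without WT 2) to 853 when each library was left out. With the replicate block 329 passed, and Plau was 1.23 (adjusted p = 0.00783); 1 of 5 WT libraries correlated best with its own number. In the wider list 1 gene rose: 2 rose with DESeq2 and at the threshold of 0.1, and 0 with the replicate block, the sex score, the column-name number, in the Xist-positive libraries or without WT 1 and WT 2, where 1 fell, Anxa2; leaving out single libraries gave 1 to 2 higher and 0 lower. The cause of these changes was not tested. Among the 5 genes Plau had the fewest counts, 64 to 212 per library.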
